A study of Homo sapiens with 12 samples.

Results

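Of the 78932 rows of the count table, 43 were switched on in the resistant cells of both melanoma lines. A row was chosen when it reached at least 10 CPM in all 6 resistant libraries and at most 1 CPM in all 6 control libraries. CPM is the count of a row divided by the total count of its library, times 1000000. Each row is a feature that the table pairs with no gene name or identifier, so the 43 features are named by the number of their row below the header line. The features were thus chosen by their measured CPM in resistant against control libraries, and that difference is given here as a description without a test.

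The libraries came from WM9 and Hs294T, established cell lines of metastatic melanoma to which the labels give the same BRAF mutation. WM9 resistant and Hs294T resistant cells had been adapted to stepwise rising concentrations of vemurafenib and cobimetinib, ending at 0.4 µM of each. WM9 control and Hs294T control cells received matching amounts of the solvent, dimethyl sulfoxide (DMSO). Each of the 4 groups held 3 libraries, labelled biological replicates. All 4 groups thus share the tumour type, the BRAF mutation and the growth medium, and the resistant groups differ from the controls in drug exposure and in a separate history of selection in culture. These cannot be told apart in this design. With no gene names, the labelled cell lines and cell type could not be checked against markers, and each direction holds for libraries as labelled.

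BRAF is a kinase that passes growth signals from RAS through MEK to ERK, which enters the nucleus and changes transcription. Mutant BRAF keeps this cascade active in many melanomas. Vemurafenib blocks mutant BRAF, and cobimetinib blocks MEK one step further down. Melanoma cells that adapt to such inhibitors are known to regain ERK signalling or to use other growth signals, and often to move between melanocytic and dedifferentiated states of transcription. Whether the 43 features belong to any of these programmes cannot be read from row numbers.

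Library totals lay between 16817256 and 22561406 counts, so 1 count corresponded to between 0.0443 and 0.0595 CPM. The upper cutoff of 10 CPM thus stood for at least 169 counts in a library and the lower cutoff of 1 CPM for at most 22 counts. A pair of libraries in each of 2 groups was nearly identical. Over features with at least 10 counts in the pair, the mean chi-square was 2.85 between WM9 control 2 and 3. Between Hs294T resistant 2 and 3 it was 3.02, where sampling noise alone gives about 1. It was between 32.5 and 133 for the other pairs within a group. The spread within the WM9 control and Hs294T resistant groups may therefore be partly technical, and counts of calls are also given with these pairs summed. Whether replicates came from separate cultures is not stated beyond the word biological.

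The rule kept few of the rows that were well expressed in resistant cells. At least 10 CPM in all 6 resistant libraries was reached by 6758 rows, of which the 43 are 0.636%. Within WM9 alone, 122 rows met the cutoffs, and within Hs294T alone 153 did. The 43 common rows are 35.2% of the WM9 list and 28.1% of the Hs294T list. Between the control groups 3.86% of tested features differed, against 42.5% between the resistant groups (edgeR quasi-likelihood test, adjusted p below 0.05). The median absolute log2 fold change over tested features was 0.37 between the control groups and 0.75 between the resistant groups. The controls, labelled as separate lines, thus differed less than the resistant groups. Few calls with 3 libraries per group do not by themselves show likeness. With the replicate number as a block in a fit of the 6 control libraries, 13.5% of features were called. With no gene names, the identity of the control libraries could not be checked. The common rows are therefore not read as agreement of independent backgrounds. All 43 passed the low-count filter of the test, by virtue of the resistant groups. All 43 were also called higher in resistant cells in each line, where 30.3% of the 18615 tested features were called higher in WM9 and 24.9% in Hs294T. The rule fixed that count, and nothing is read from it.

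**Figure D1:**
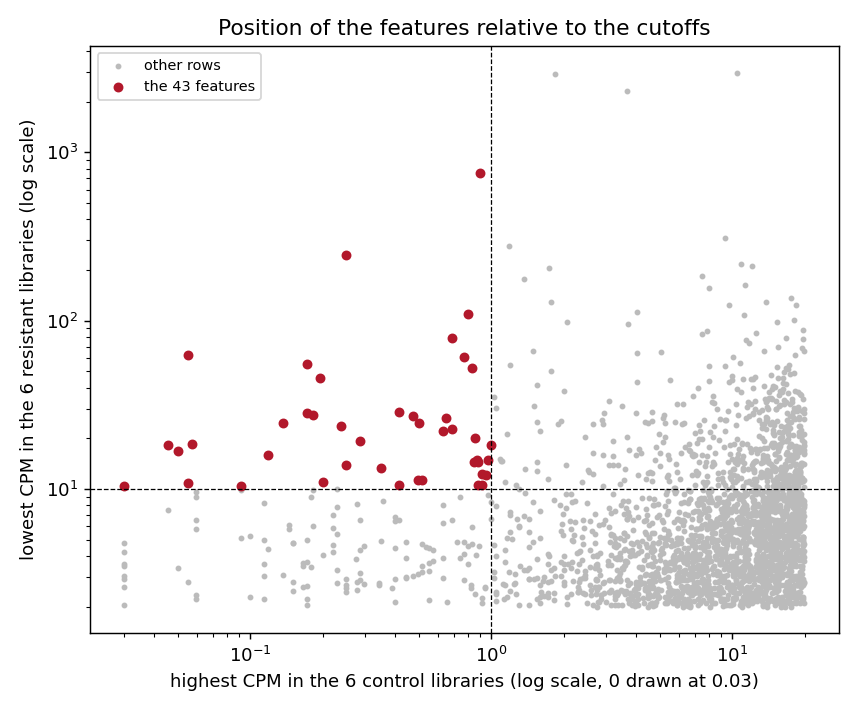
Lowest CPM over the 6 resistant libraries (vertical axis, log scale) against highest CPM over the 6 control libraries (horizontal axis, log scale, 0 drawn at 0.03) for rows of the table with a lowest resistant level between 2 and 3000 CPM and a highest control level up to 20 CPM. Dashed lines mark the cutoffs of 10 and 1 CPM, and the 43 features (red) fill the upper left field without a gap to the rows around it.

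The cutoffs do not separate a distinct class of rows. At the resistant cutoff the features just inside were row5957 with a lowest resistant level of 10.4 CPM, row33368 with 10.5 CPM and row39025 with 10.5 CPM. Just outside were row75146 with 9.97 CPM, row31982 with 9.84 CPM and row39464 with 9.84 CPM. At the control cutoff the features just inside were row4772, whose highest control level was 1.000 CPM, row41912 with 0.973 CPM and row51203 with 0.950 CPM. Just outside were row32054 with 1.03 CPM, row372 with 1.05 CPM and row40234 with 1.09 CPM. A single library kept out 21 further rows, 7 of them through WM9 control 1 or WM9 control 2. The most abundant of these, named after its values were seen, was row31705. Its mean level was 3748 CPM over WM9 resistant libraries and 3385 CPM over those of Hs294T, and it was kept out by 1.85 CPM in WM9 control 2.

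Most of the 43 features were expressed at a modest level in resistant cells. The mean over the 6 resistant libraries ranged from 12.7 CPM for row33368 to 1750.2 CPM for row30898, with a median of 41.2 CPM. It was at least 100 CPM in 8 features, between 30 and 100 CPM in 20 and under 30 CPM in 15. Together the 43 features held 0.486% ± 0.076 of all counts in WM9 resistant and 0.435% ± 0.023 in Hs294T resistant libraries (SD, n = 3 each). In control libraries they held between 0.000698% and 0.00165% of the counts. In bulk samples, a larger share of cells that express a feature and more RNA per cell cannot be told apart.

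**Figure D2:**
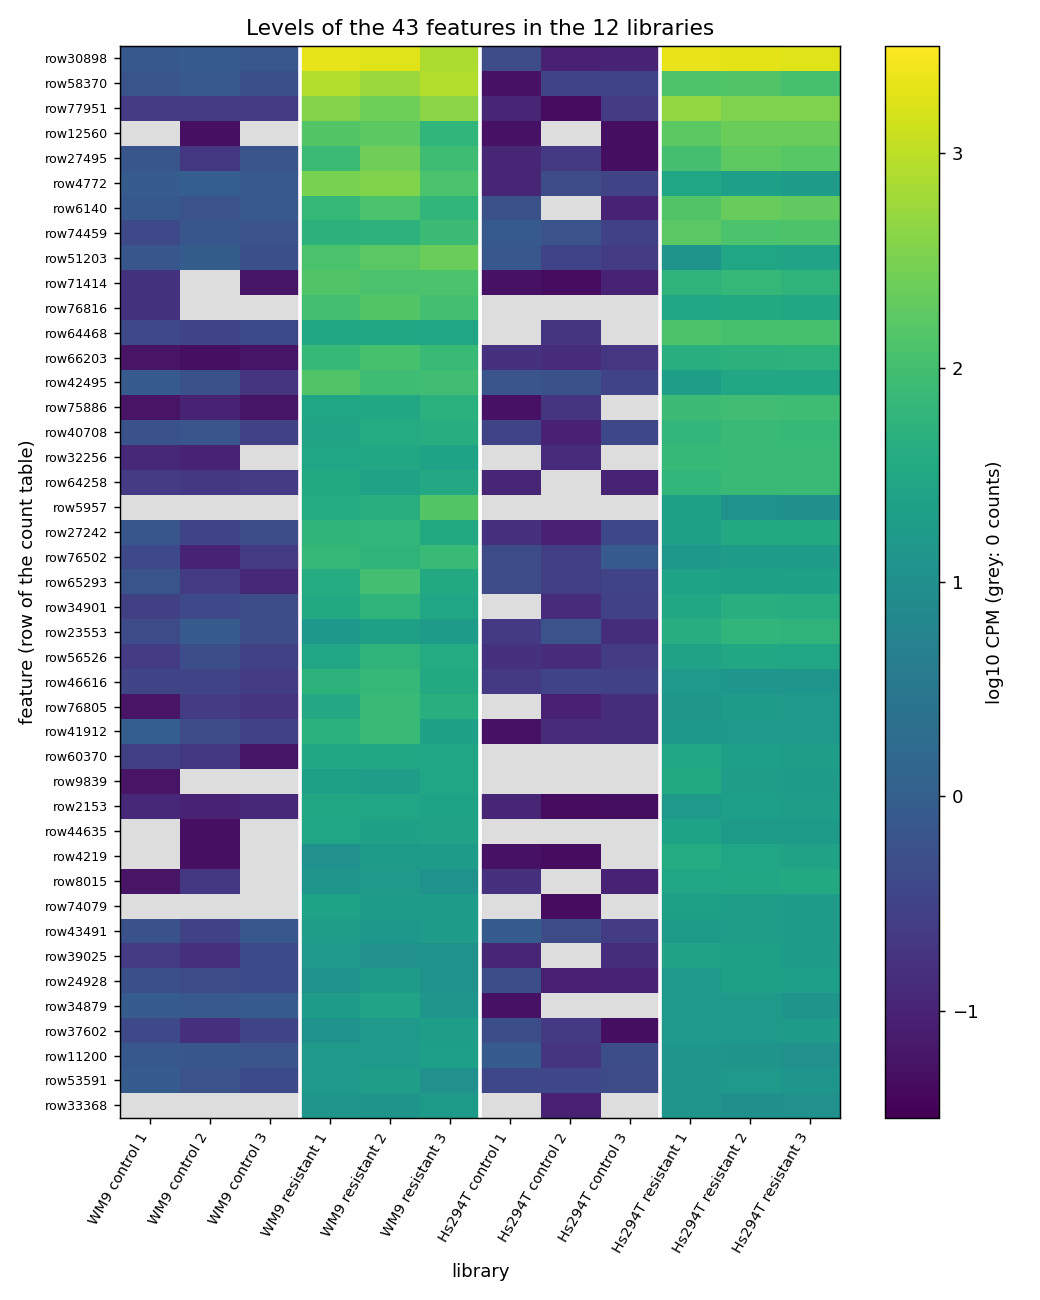
Heat map of log10 CPM for the 43 features (one per line, ordered by mean level over the resistant libraries) in the 12 libraries (one per column, white lines between the groups), with 0 counts in grey. The resistant columns are bright for every feature because the rule requires it, the top line is row30898, and row5957 is grey in all 6 control columns.

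A single feature, row30898, carried much of the total. Its levels were 2075, 1777 and 754 CPM in WM9 resistant libraries 1, 2 and 3, and 2158, 1973 and 1765 CPM in Hs294T resistant libraries 1, 2 and 3. WM9 resistant 3 was low and the other 5 libraries were close to each other, so the groups overlapped. The feature made up 38.7%, 34.0% and 18.9% of the counts of the 43 features in the WM9 resistant libraries, and 47.7%, 44.4% and 43.1% in the Hs294T resistant libraries. The WM9 controls together held 43 of its counts and the Hs294T controls 12. The level in resistant over control libraries was 1888 times in WM9 (exact 95% counting interval 1402 to 2609.6) and 9971 times in Hs294T (5708 to 19297). Without Hs294T control 1, which held 8 of the 12 counts, the latter was 20997 times. This lies above the interval, which leaves out the spread between replicates.

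The other 5 of the 6 most abundant features fell into different patterns. In row77951 the WM9 resistant libraries had 380.3, 246 and 428 CPM and the Hs294T resistant libraries 491, 338 and 348 CPM, with overlapping groups. Levels of row12560 were 145, 173 and 62.5 CPM in WM9 and 172, 241 and 229 CPM in Hs294T, and WM9 resistant 3 was again the lowest. For row27495 the levels were 79.4, 262 and 87.2 CPM in WM9 and 108, 185 and 162 CPM in Hs294T, with WM9 resistant 2 above all other libraries. None of these 3, nor row30898, was called between the resistant groups. The remaining 2, row58370 and row4772, were both far higher in WM9.

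Levels in the resistant groups were compared next. This contrast of Hs294T resistant with WM9 resistant libraries was not the one used to choose the features, although both groups had to reach 10 CPM. In an edgeR quasi-likelihood fit over all 12 libraries, 27 of the 43 features (62.8%) differed at an adjusted p below 0.05. The same contrast called 42.5% of all tested features and 38.9% of the 6758 features with at least 10 CPM in all 6 resistant libraries. Of the 27, 17 were higher in WM9 and 10 were higher in Hs294T. The shares over all tested features were 21.7% higher in WM9 and 20.7% higher in Hs294T, and 26.4% and 12.5% over the 6758. With the near-identical pairs summed, 21 of the 27 remained, 15 higher in WM9 and 6 higher in Hs294T. The number higher in Hs294T was also 6 without WM9 resistant 1.

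Among the 43 features, the differences that favoured WM9 were the larger ones. At least 2-fold differences were found in 13 of the 17 features higher in WM9 and in 5 of the 10 higher in Hs294T. At least 4-fold differences were found in 8 and 0. The shares of all tested features and of the 6758 at these sizes were not computed. These counts are therefore not read as a trait of the 43 features. The median log2 fold change of Hs294T over WM9 was -0.34 in the 43 features, 0.01 in all tested features and -0.19 in the 6758. The median absolute value was 0.87, against 0.75 and 0.50. In 27 of the 43 features (62.8%) the groups had no overlap in column-sum CPM, compared with 54.2% of tested features and 54.7% of the 6758. Across the 43 features, log2 mean levels in the resistant groups had a Pearson correlation of 0.64 and a Spearman correlation of 0.49. Across the 6758 features the Pearson correlation was 0.84. Features of one library share its depth and composition and are not independent, so these values are descriptions.

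**Figure D3:**
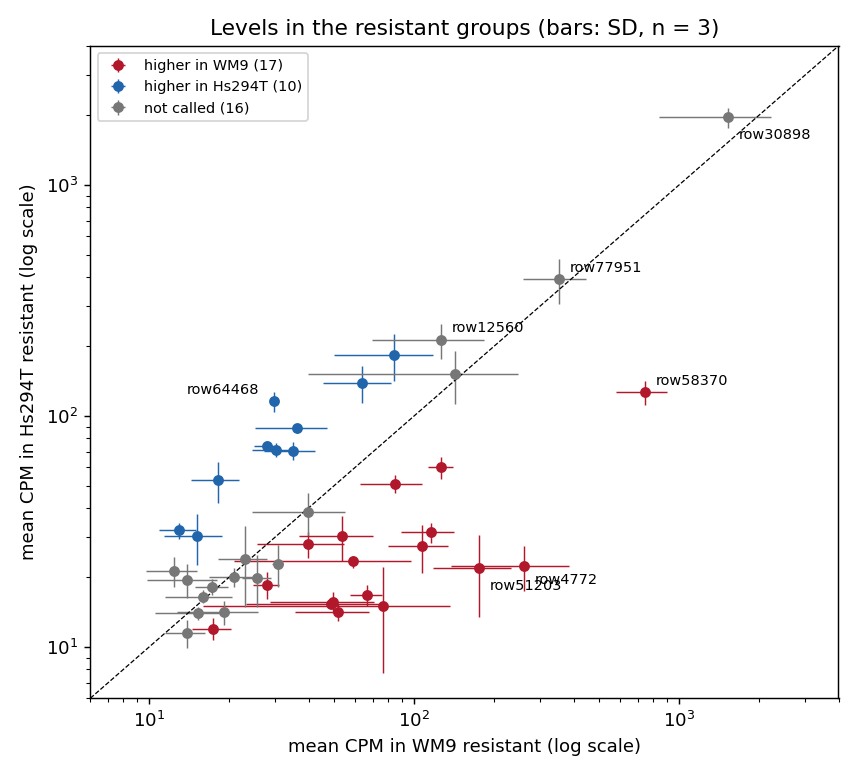
Mean CPM in the 3 Hs294T resistant libraries (vertical axis, log scale) against mean CPM in the 3 WM9 resistant libraries (horizontal axis, log scale) for the 43 features, with bars for the SD and colours for the edgeR call between the groups (17 higher in WM9, 10 higher in Hs294T, 16 not called). The dashed line marks equal levels, row30898 and row77951 lie near it, and row58370, row4772 and row51203 lie farthest below it.

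Among the features higher in WM9, row4772 had the largest fold difference. Its levels were 311, 350.0 and 121 CPM in WM9 resistant libraries and 27.8, 21.3 and 18.2 CPM in Hs294T resistant libraries. All 3 WM9 libraries stood above all 3 Hs294T libraries, although WM9 resistant 3 had less than the other 2. After scaling with TMM factors the level in WM9 was 13.4-fold that in Hs294T (edgeR adjusted p = 2.39e-06, log2 fold change -3.75 with SE 0.38).

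The next was row51203, at 121, 169.8 and 235 CPM in WM9 and 12.2, 27.6 and 26.3 CPM in Hs294T. Here WM9 resistant 3 was the highest of all and the groups did not overlap. In WM9 the scaled level was 9.43-fold that of Hs294T (edgeR adjusted p = 3.37e-06, log2 fold change -3.24 with SE 0.34). In row58370, the second most abundant of the 43, levels were 830.3, 555 and 838 CPM in WM9 and 133, 137 and 109 CPM in Hs294T. The scaled level was 7.07-fold that of Hs294T (edgeR adjusted p = 9.78e-06, log2 fold change -2.82 with SE 0.33), again with no overlap.

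The fourth, row5957, was the only one of the 43 with 0 counts in all 6 control libraries. Its levels were 37.2, 45.7 and 145 CPM in WM9 and 23.4, 11.3 and 10.4 CPM in Hs294T. WM9 resistant 3 stood far above the other libraries, and 2 of the Hs294T libraries lay just above the cutoff. The difference of 6.04-fold (edgeR adjusted p = 0.00309, log2 fold change -2.59 with SE 0.55) had a log2 fold change of -1.65 without WM9 resistant 3. Set against a floor of 3 counts over the control group of its line, row5957 was at least 1427-fold higher in WM9 resistant (760-fold without WM9 resistant 3) and at least 310.4-fold higher in Hs294T resistant libraries. The fifth was row76502, with 67.3, 56.9 and 75.1 CPM in WM9 and 14.8, 17.5 and 18.2 CPM in Hs294T (edgeR adjusted p = 2.23e-05, log2 fold change -2.24 with SE 0.29). Its groups were far apart and tight within themselves.

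The remaining 12 features called higher in WM9 differed less. At 2-fold or more were row42495 (107 ± 27.2 CPM in WM9 and 27.4 ± 6.44 CPM in Hs294T; SD and n = 3 here and below), row76816 (115 ± 26.5 CPM and 31.3 ± 3.06 CPM) and row46616 (51.6 ± 16.1 CPM and 14.1 ± 1.22 CPM). In the same class were row41912 (48.5 ± 25.2 CPM and 15.4 ± 0.529 CPM), row76805 (49.5 ± 21.0 CPM and 15.7 ± 1.64 CPM) and row65293 (59.0 ± 38.0 CPM and 23.5 ± 1.38 CPM). The Hs294T levels of these last 3 were tight, while the WM9 libraries spread widely. The last 2 in this class were row71414 (127 ± 13.4 CPM and 59.9 ± 6.55 CPM) and row27242 (53.2 ± 16.5 CPM and 30.3 ± 6.65 CPM). In row27242 the groups overlapped in CPM. Below 2-fold were row66203 (84.6 ± 22.2 CPM and 51.0 ± 4.60 CPM), row2153 (27.8 ± 3.13 CPM and 18.6 ± 2.47 CPM), row11200 (17.5 ± 2.92 CPM and 12.0 ± 1.31 CPM) and row56526 (39.9 ± 14.4 CPM and 27.8 ± 3.63 CPM). Of these 4, row56526 had overlapping groups. For row11200 the edgeR adjusted p was 0.033 and for row56526 it was 0.0256, the closest to the threshold of the 17.

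**Figure D4:**
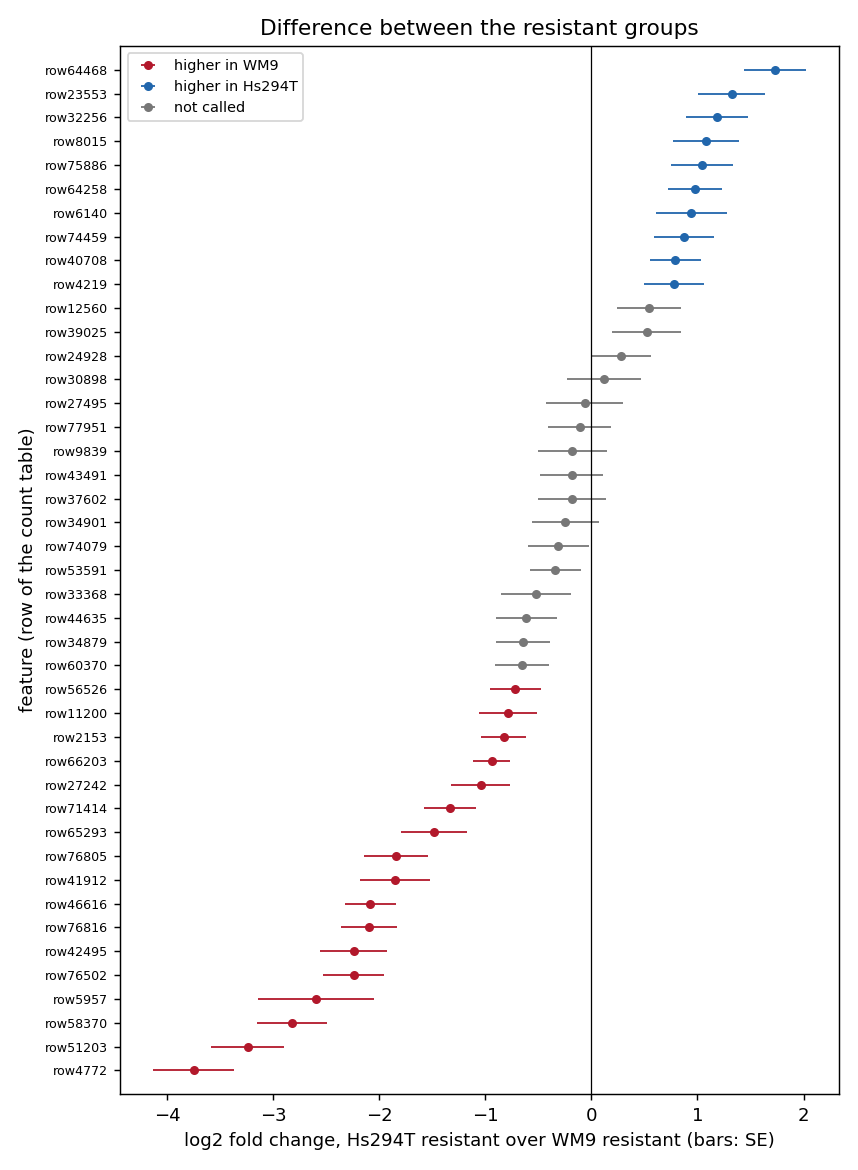
Log2 fold change of Hs294T resistant over WM9 resistant libraries (horizontal axis, bars for the SE of the edgeR fit) for each of the 43 features (vertical axis, ordered by that value), coloured by the call. Values run from -3.75 for row4772 to 1.73 for row64468, and the 16 features not called lie between -0.66 and 0.54.

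Of the features higher in Hs294T, row64468 had the largest fold difference. Its levels were 30.2, 29.7 and 28.8 CPM in WM9 and 129, 109 and 109 CPM in Hs294T. The WM9 libraries were almost equal, with the smallest coefficient of variation of any of the 43 in that group (2.44%). The level in Hs294T was 3.31-fold that in WM9 (edgeR adjusted p = 0.000254, log2 fold change 1.73 with SE 0.29).

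Smaller differences in the same direction were found in 4 further features at 2-fold or more. In row23553 the WM9 libraries had 14.4, 22.0 and 18.0 CPM and the Hs294T libraries 40.8, 61.6 and 55.9 CPM (edgeR adjusted p = 0.00361, log2 fold change 1.32 with SE 0.32). Levels of row32256 were 28.9, 29.7 and 24.6 CPM in WM9 and 71.2, 77.9 and 73.6 CPM in Hs294T (edgeR adjusted p = 0.00432, log2 fold change 1.18 with SE 0.29). Neither feature had overlapping groups, and in row32256 the libraries of each group were close together. The levels of row8015 were 12.9, 15.0 and 10.9 CPM in WM9, near the cutoff, and 29.4, 32.2 and 34.5 CPM in Hs294T (edgeR adjusted p = 0.0113, log2 fold change 1.08 with SE 0.31). For row75886 they were 27.7, 32.0 and 48.6 CPM in WM9 and 84.0, 91.4 and 89.5 CPM in Hs294T (edgeR adjusted p = 0.00967, log2 fold change 1.04 with SE 0.29). In both, every Hs294T library was above every WM9 library.

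The other 5 features called higher in Hs294T differed by less than 2-fold after scaling. They were row64258 (30.1 ± 5.56 CPM in WM9 and 71.4 ± 5.14 CPM in Hs294T), row6140 (83.7 ± 34.0 CPM and 184 ± 42.0 CPM) and row74459 (63.9 ± 18.3 CPM and 139 ± 25.4 CPM), followed by row40708 (34.8 ± 7.57 CPM and 70.7 ± 6.52 CPM) and row4219 (15.2 ± 3.72 CPM and 30.2 ± 7.43 CPM). In CPM over column sums these means differed by more than after scaling. The scaling factors of WM9 resistant 1 and 3 (0.746 and 0.793) were below those of the Hs294T resistant libraries (0.956 to 0.997). The factor of WM9 resistant 2 (0.986) lay within that range. Without these factors the median log2 fold change of all tested features was 0.23 in place of 0.01. The numbers higher in WM9 and in Hs294T were then 13 and 10, and none of the 27 called features changed direction under any scaling tried.

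A difference was not shown for 16 features. Their log2 fold changes lay between -0.66 and 0.54, with standard errors that leave room for differences of modest size. The most abundant were row30898 (log2 fold change 0.12, SE 0.35), row77951 (-0.11, SE 0.29), row12560 (0.54, SE 0.30) and row27495 (-0.06, SE 0.36). Of the 43 features, row5957 and row4772 alone had a larger SE than row27495. In row34901 the levels were 39.6 ± 15.2 CPM in WM9 and 38.5 ± 8.06 CPM in Hs294T, and in row74079 20.9 ± 4.11 CPM and 20.1 ± 1.88 CPM. Close means were also found in row9839 (23.1 ± 4.89 CPM and 24.2 ± 9.29 CPM), row43491 (17.3 ± 2.48 CPM and 18.3 ± 1.41 CPM) and row37602 (16.0 ± 4.57 CPM and 16.5 ± 1.05 CPM). Each of these 5 features had overlapping groups.

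The others of the 16 had group means farther apart in column-sum CPM than the 5 with close means. After scaling this order did not always hold, with log2 fold changes of -0.31 in row74079 and 0.28 in row24928. Higher means in WM9 were found in row60370 (30.6 ± 1.54 CPM in WM9 and 22.9 ± 4.65 CPM in Hs294T), row34879 (19.2 ± 6.50 CPM and 14.2 ± 1.71 CPM), row44635 (25.6 ± 3.24 CPM and 19.9 ± 5.01 CPM), row33368 (13.9 ± 2.42 CPM and 11.5 ± 1.55 CPM) and row53591 (15.3 ± 4.77 CPM and 14.0 ± 0.922 CPM). Of these 5, row60370 had groups that did not overlap, with an edgeR adjusted p of 0.0548. Higher means in Hs294T were found in row39025 (12.5 ± 2.76 CPM and 21.4 ± 3.20 CPM) and row24928 (13.9 ± 4.14 CPM and 19.6 ± 3.37 CPM). The groups of row39025 did not overlap either, and its edgeR adjusted p was 0.215.

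The features varied more between replicates in WM9 resistant than in Hs294T resistant libraries. The median coefficient of variation of CPM was 26.3% in WM9 and 12.1% in Hs294T, where Hs294T resistant 2 and 3 are a near-identical pair. Over the 6758 features with at least 10 CPM in all resistant libraries the medians were 19.3% and 9.98%. In WM9 the coefficient was above 50% in 4 features and below 10% in 3. The 4 were row5957 (79.0%), row27495 (72.2%), row65293 (64.4%) and row41912 (52.1%), and they were chosen after their values were seen. In row5957 WM9 resistant 3 was the high library. In row27495 and row65293 WM9 resistant 2 was high, at 262 CPM and 103 CPM. In row41912 WM9 resistant 3 was low, at 22.6 CPM against 49.7 and 73.1 CPM. In Hs294T no feature exceeded 50%, and the highest coefficient was that of row5957 (48.4%), where Hs294T resistant 1 had 23.4 CPM and the other 2 had 11.3 and 10.4 CPM. No one WM9 resistant library was low throughout. WM9 resistant 1, 2 and 3 were the lowest of their group in 14, 12 and 17 of the 43 features and the highest in 11, 19 and 13. After TMM scaling they were the lowest in 8, 20 and 15.

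Traces of the 43 features were present in control libraries. Over all 43, the WM9 control libraries held 801 counts and the Hs294T control libraries 480. Summed CPM was 14.7 ± 1.79 in WM9 control and 8.01 ± 1.51 in Hs294T control libraries (SD, n = 3 each), and the groups did not overlap. The median per feature over 3 libraries was 17 counts in WM9 and 8 in Hs294T. The mean CPM was higher in WM9 control in 32 features, lower in 10 and equal in 1, which had no counts. That is 74.4% of the 43 features, against 64.8% of all tested features and 61.5% of the 2551 tested features with at most 1 CPM in all controls. With TMM-scaled CPM the shares were 65.1%, 50.8% and 52.6%. Summed over the 43 features, TMM-scaled CPM was 11.8 to 13.2 in WM9 control and 7.17 to 8.22 in Hs294T control libraries. The rule capped these levels at 1 CPM but did not set their order between the lines. The control level of a feature had little relation to its resistant level (Spearman correlation 0.16 over the 43 features, given as a description).

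A test of Hs294T control against WM9 control libraries called 2 of the 43 features, against 3.86% of all tested features. Both were lower in Hs294T. The first, row34879, had 0.916, 0.800 and 0.892 CPM in WM9 control libraries (47 counts) and 0.0553, 0 and 0 CPM in Hs294T control libraries (1 count in all). The WM9 values lie just under the cutoff, and the groups did not overlap (edgeR adjusted p = 0.000489, log2 fold change -5.05 with SE 0.63). Without Hs294T control 1, the library with the 1 count, the fitted log2 fold change was -6.85 against a group at 0. The second, row60370, had 10 counts in the WM9 controls and 0 in the Hs294T controls (edgeR adjusted p = 0.0351). It passed the low-count filter through the resistant groups alone and was not tested in a fit of the 6 control libraries. With a floor of 3 counts over the Hs294T control group its Hs294T resistant level was at least 467-fold higher. Its call rests on 10 counts and was lost (adjusted p = 0.0525 to 0.117) without any 1 of WM9 control 1 or 2, any Hs294T control or Hs294T resistant 2, and with the near-identical pairs summed (adjusted p = 0.0726). In the fit of the 6 control libraries, 10 of the 43 features passed the filter and 1, row34879, was called, against 2.77% of features tested there. Same-numbered control libraries of the lines had deviations with correlations of 0.10 to 0.60, which does not establish a pairing. With the replicate number as a block in that fit 3 of the 10 were called, against 13.5%. These were row34879, row30898 (edgeR adjusted p = 0.0255, log2 fold change -1.81 with SE 0.60) and row6140 (edgeR adjusted p = 0.0378, log2 fold change -1.77 with SE 0.62), all lower in Hs294T. The features in this paragraph were named after their values were seen.

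In 5 features the Hs294T controls held no count, and in 3 the WM9 controls held none. The 5 were row76816, row5957, row60370, row9839 and row44635. Against the floor of 3 counts over the group, the level in Hs294T resistant libraries was at least 631-fold higher for row76816, 497-fold for row9839 and 407-fold for row44635. The 3 without counts in WM9 controls were row5957, row74079 and row33368. In WM9 resistant libraries row74079 was at least 371-fold and row33368 at least 252-fold higher. At the other end, row34879 was 22.4 times its control level in WM9 (exact 95% counting interval 16.7 to 30.6) and row11200 24.4 times in Hs294T (16.9 to 36.4), the smallest ratios in each line. Without Hs294T control 1 the ratio of row11200 was 36.7. These intervals and floors pool the counts of the 3 libraries of a group, so they cover counting error alone and leave out the spread between replicates. Reads were not marked by molecular identifiers and may be copies of the same molecule, so the counting error itself may be larger.

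The size of the resistance effect was compared between the lines with the interaction term of the same fit. It differed in 14 of the 43 features (edgeR adjusted p below 0.05), against 33.3% of all tested features and 33.1% of the 6758. The effect was larger in Hs294T in 7 and larger in WM9 in 7. The share of 32.6% is thus close to the background. In row76502, which had the largest difference in favour of WM9, the resistant level was lower in Hs294T. Its control counts were 13 in WM9 and 32 in Hs294T, 18 of the latter in Hs294T control 3, and the control groups were not called different (edgeR adjusted p = 0.185). In row34879 the control groups were called different and the resistant groups were not. For row5957 the test could not be informative because no control library held a count, and the feature is counted as not called among the 43. Also not called were row76816, row9839 and row44635, without counts in Hs294T controls, and row74079 and row33368, without counts in WM9 controls. These features held at most 3 counts in the controls of the other line, so their lack of a call says little. With the near-identical pairs summed, 9 of the 14 remained.

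The order of rows in the table was examined last, as a property that the rule did not use. No 2 of the 43 features lay within 5 rows of each other. The closest were row76805 and row76816, 11 rows apart, and row34879 and row34901, 22 rows apart, and all other neighbours were at least 183 rows apart. Both features of the first pair were higher in WM9, at 32.8, 73.0 and 42.7 CPM and 98.0, 146 and 102 CPM in WM9 and 14.0, 17.2 and 16.0 CPM and 28.2, 34.2 and 31.7 CPM in Hs294T. What the row order stands for is not given in the sources used here.

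Some rows close to the 43 features were higher in resistant cells too, mostly at low levels. Within 5 rows on each side lay 88 other tested rows, near 36 of the 43 features. Of these, 27 (30.7%) were higher in resistant cells in both lines (edgeR adjusted p below 0.05 in each), against 15.4% of all tested features. They lay near 15 features, and 9 of the 88 rows were lower in both lines. Among the 15 tested rows directly next to a feature, 7 (46.7%) were higher in both. Of the 11 of these that passed the low-count filter in the control libraries alone, 4 (36.4%) were. Of the 27 rows, 13 did not pass that filter. Rows that are nearly silent in controls pass the low-count filter only through resistant libraries. This favours a call of higher, though not always in both lines. Restricted to rows with a mean of at least 1 CPM over the 12 libraries, 17 of 69 (24.6%) were higher in both, against 16.4% of all such features. At a mean of at least 5 CPM the numbers were 11 of 51 (21.6%) and 16.8%. Of the 17 rows, 3 did not pass the filter in the control libraries alone. The first restriction thus still held rows that passed only through resistant libraries, and the second held none among its 11. Of the 70 rows that passed the filter in the control libraries alone, 14 (20%) were higher in both, against 12.4% of all such features. Whether these shares differ from the background was not tested.

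**Figure D5:**
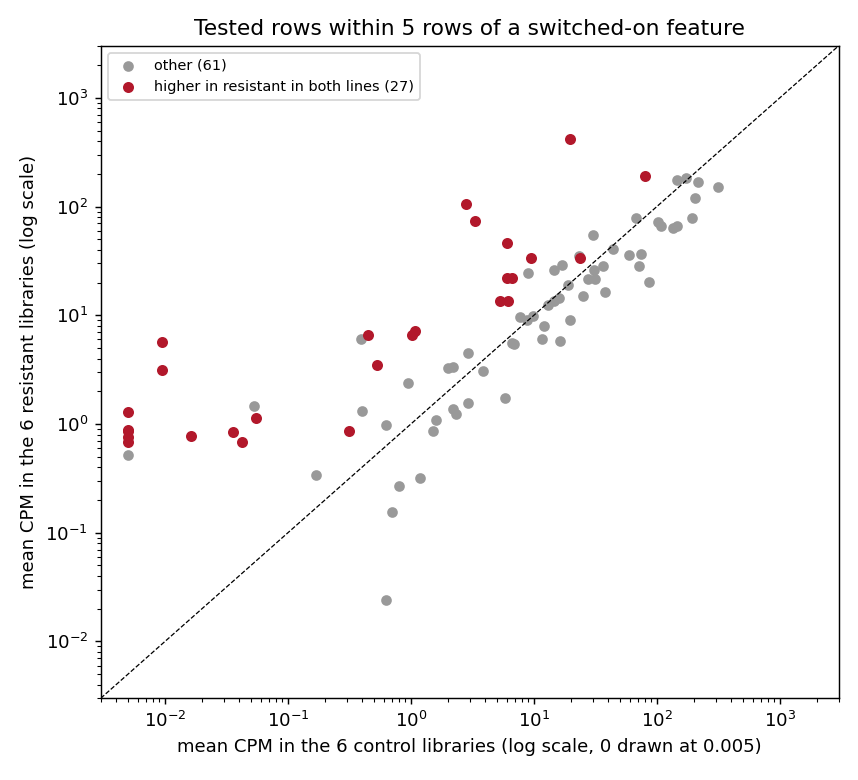
Mean CPM over the 6 resistant libraries (vertical axis, log scale) against mean CPM over the 6 control libraries (horizontal axis, log scale, 0 drawn at 0.005) for the 88 tested rows within 5 rows of one of the 43 features. The 27 rows higher in resistant cells in both lines (red) include a column of rows at or near 0 in controls with resistant levels around 1 CPM, and 61 other rows (grey) mostly lie along the dashed line of equal levels.

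The 4 neighbouring rows with the largest smaller fold change of the lines were all scarce. The row next to row33368, row33369, had 0 counts in all control libraries, 0.562 ± 0.108 CPM in resistant WM9 and 1.18 ± 0.121 CPM in resistant Hs294T cells. Near row32256, row32251 had 1.52 ± 0.382 CPM in resistant WM9 and 4.78 ± 0.435 CPM in resistant Hs294T cells. Near row27495, row27499 had 1.44 ± 0.860 CPM and 9.90 ± 0.496 CPM, and near row24928, row24926 had 0.337 ± 0.109 CPM and 1.03 ± 0.383 CPM (SD, n = 3 each). Their controls held at most 0.0191 CPM in a group. All 4 rows had higher resistant means in Hs294T than in WM9, a difference for which no test is given here. Of the features beside them, row32256 was called higher in Hs294T, and row33368, row27495 and row24928 were not called.

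More abundant neighbours, chosen after their values were seen, were found near row30898, row74459, row5957 and row60370. Row30903 rose from 3.17 ± 0.678 CPM to 74.7 ± 12.0 CPM in WM9 and from 2.48 ± 1.36 CPM to 135 ± 10.3 CPM in Hs294T. Row74455 rose from 4.45 ± 2.14 CPM to 105 ± 33.2 CPM in WM9 and from 2.21 ± 0.818 CPM to 41.5 ± 5.43 CPM in Hs294T. Row5953 rose from 23.9 ± 4.85 CPM to 187 ± 124 CPM in WM9 and from 15.3 ± 4.02 CPM to 647 ± 103 CPM in Hs294T, whereas row5957 beside it was higher in WM9. Near row60370, row60375 was abundant in controls and rose less, from 70.8 ± 20.6 CPM to 213 ± 35.6 CPM in WM9. In Hs294T row60375 rose from 90.1 ± 17.4 CPM to 171 ± 5.77 CPM. Whether neighbouring rows overlap or share reads was not tested, as the table holds no coordinates and the strand setting of the counting is not given in the sources used here.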

How the data were processed

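The authors deposited a table of raw, unnormalized read counts with 1 column per library (12 in all) and no gene names. A stranded mRNA kit was used for the libraries, per the labels' protocols. GRCh38, STAR 2.7.11b, Subread 2.0.8, featureCounts, fastp 0.24.0 and FastQC 0.12.1 appear in the submitters' processing notes. Neither the annotation nor the strand setting of the counting is given in the sources used here. Column totals of 16817256 to 22561406 counts set the precision.

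CPM for the rule and for printed levels was the count over the column sum. Differences were tested with edgeR 4.0.16 (R 4.3.3; quasi-likelihood F test, robust, two-sided, TMM factors, filterByExpr by group with minimum count 10). A single fit covered all 12 libraries in 4 groups (8 residual degrees of freedom), with Benjamini-Hochberg adjustment over 18615 features. The SE is the absolute log2 fold change over the square root of F. Counting intervals are exact Clopper-Pearson on counts pooled over the libraries of a group (scipy 1.17.1), with a floor of 3 counts. DESeq2 1.42.0, other scalings, filters and left-out libraries served as alternatives. Correlations of deviations from group means over tested features were above 0.1 for all 3 same-numbered pairs of control libraries (0.10 to 0.60). These values are not independent, because deviations within a group are tied to each other and WM9 control 2 and 3 are near-identical. A pairing of the control groups by replicate number is thus possible but not established. The labels say nothing of a shared batch.

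The features and tests were chosen with earlier results of these data known. Named were the 6 most abundant features, the 5 with the largest called and non-overlapping difference per direction, those without control counts, the 3 nearest each side of a cutoff, and 4 neighbouring rows. No gene list could be used.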

Additional observations from a re-analysis of the deposited data

Results flagged for a closer look

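In 14 of the 43 features the lines differed in the effect of resistance by the interaction term (edgeR adjusted p below 0.05). This share of 32.6% is close to the 33.3% of all tested features and the 33.1% of the 6758 with at least 10 CPM in all resistant libraries. Differences are log2 fold changes in Hs294T minus those in WM9. All rest on at most 68 control counts per feature, which the rule held low.

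The effect was larger in WM9 in 7 features. The differences were -3.57 in row76502 (edgeR adjusted p = 0.000337), -2.62 in row51203 (0.00579), -2.60 in row66203 (0.00706), -2.47 in row4772 (0.0173), -2.41 in row42495 (0.00629), -2.15 in row46616 (0.00518) and -1.77 in row65293 (0.0481). The value of row65293 was not past the threshold in 14 of its 19 other fits. Without WM9 control 1 its value was -2.43, and without Hs294T control 3 that of row76502 was -2.98. Without Hs294T control 2 the value of row4772 was -1.91 (adjusted p = 0.128).

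The effect was larger in Hs294T in the other 7 features. The differences were 1.53 in row40708 (edgeR adjusted p = 0.0303), 1.96 in row23553 (0.0227), 2.43 in row64258 (0.0211), 2.55 in row6140 (0.0123), 3.95 in row64468 (0.00129) and 4.40 in row34879 (0.000362). In row60370 the fitted value of 4.01 (0.0184) is no effect size, because the Hs294T controls held 0 counts. Against a floor of 3 counts over the Hs294T controls, its Hs294T resistant level was at least 467-fold higher. Its WM9 resistant level was 166 times the control level of that line (exact 95% counting interval 89.9 to 346). Without 1 Hs294T control the value was 4.34 in row6140 and 6.21 in row34879 (control 1), and 7.45 in row64468 and 2.96 in row23553 (control 2). In row34879 and row64468 this left the Hs294T controls with 0 counts. Without Hs294T control 2 or WM9 control 3 row64258 was not past the threshold (adjusted p = 0.0559 and 0.0534). Without WM9 control 2 the values of row23553 and row40708 were 1.52 and 1.23, not past the threshold. That also held for row23553 without Hs294T control 3 or Hs294T resistant 2, and for row40708 without WM9 control 1, WM9 resistant 1, Hs294T control 2, Hs294T resistant 2 or Hs294T resistant 3.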

How the results depend on the processing

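The number of features switched on in both lines followed the cutoffs: 24 at 10 and 0.5 CPM, 70 at 10 and 2 CPM, 76 at 5 and 1 CPM, 19 at 20 and 1 CPM, 50 at 5 and 0.5 CPM, 36 at 20 and 2 CPM, 53 with TMM-scaled CPM, 77 on group means, and 43 to 47 without 1 library.

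Between the resistant groups, 22 to 29 of the 43 features were called without 1 library (6 to 10 higher in Hs294T, 15 to 19 lower). Higher in Hs294T were 5 at adjusted p below 0.01 and 6 with near-identical pairs summed. Effects differed between the lines in 7 features (2 larger in Hs294T) at 0.01, in 9 (4) with pairs summed, and in 11 to 16 without 1 library (5 to 9 larger in Hs294T, 5 to 7 in WM9). Between the control groups 1 feature, lower in Hs294T, was called at 0.01, with pairs summed and with only the 6 control libraries, 3 with a replicate block in those 6, and 1 to 3 without 1 library, all lower in Hs294T. DESeq2 called 29, 16 and 3 in the 3 contrasts. Neighbouring rows higher in both lines were 46.7% for adjacent rows and 36.4% for adjacent rows that passed the filter in controls alone. Within 5 rows they were 20% for rows that passed that filter and 26.1% to 33.0% without 1 library. No call named here changed direction in these fits, and the causes of the changed counts were not tested. Fits on column sums, the block in the control libraries, and neighbouring rows split by mean level or by the filter in controls were added after seeing the data.

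Of the same-numbered pairs, 2 of 3 between the resistant groups had a correlation of deviations above 0.1 (-0.03 to 0.38). In the 4 other sets of a resistant and a control group 1, 0, 1 and 0 of 3 had one. A pairing of resistant libraries by number was thus neither shown nor excluded. In all, 5 of 12 libraries were closest to one of their own number. With the replicate number as a block over all 12 libraries, 25 of the 27 calls between the resistant groups remained, and 14 effects and 2 control differences were called. Control levels near 1 count limit the comparison of effects.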
